A study of Saccharomyces cerevisiae BY4741 with 9 samples.

Results

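Serine, glycine and one-carbon supply in budding yeast was followed through the transcripts of 10 enzyme genes, SHM1, SHM2, MTD1, ADE3, MIS1, GCV1, GCV2, SER1, SER2 and SER3, out of the 7130 features of the deposited expression table. The genes were chosen by name, with the difference between the genotypes in these same libraries already known. Their levels in scc2-4 and WT cells are therefore given as a description, without a test. Each of the 10 matched 1 row of the table, and all 10 had a mean level above the minimum of 1 RPKM (reads per kilobase of feature per 1000000 reads assigned to features) that was used for testing, which 6559 features passed.

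The cells were of the laboratory strain background BY4741 and were harvested in exponential phase, at an optical density of 0.7, from YPD medium with a complete supplement mixture (CSM). One group carried scc2-4, a mutant allele of the gene for the cohesin loader subunit Scc2, and the other was WT; no further allele or agent is labelled for either. The table holds 3 scc2-4 and 3 WT columns, and the design text calls them biological replicates. All scc2-4 libraries were ribo-depleted, whereas WT RNA is labelled both as ribo-depleted and as total RNA, and the names of the WT columns match both. Were the WT columns the total RNA libraries, preparation and genotype could not be told apart in any comparison below. The labels do not state the growth temperature.

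Each library held 14930000 to 21930000 assigned reads in scc2-4 and 14730000 to 17670000 in WT. The count behind a value of the 10 genes lay between 697 reads for GCV1 and 18513 reads for SHM2, so counting error alone was at most 3.79% of a value. WT replicate 1 stood apart, with a correlation across features of 0.977 and 0.968 with the other WT libraries, against 0.993 between those. For each of the 10 genes, and for some of the further genes, the difference is given with and without it. SCC2 had 16.49, 17.87 and 17.92 RPKM in scc2-4 libraries, against 7.68, 10.25 and 12.15 RPKM in WT libraries. That level does not check the labels, since scc2-4 alters the gene and does not remove it. Of the genes that BY4741 carries as deletions, LEU2 and MET15 were at 0 in all 6 libraries and URA3 was at 0 in 5, with 1 read in scc2-4 replicate 2. HIS3, of which BY4741 is known to lack only a part, had 45.0 to 55.3 RPKM in scc2-4 and 38.7 to 45.9 RPKM in WT libraries. The values are shares of each library's reads from bulk cultures, so fewer cells with a transcript and less of it per cell cannot be told apart.

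Serine is made from a glycolytic intermediate by the enzymes of SER3 or SER33, SER1 and SER2. Serine hydroxymethyltransferase splits it into glycine and a one-carbon unit carried by tetrahydrofolate, and the glycine cleavage system of mitochondria takes a second unit from glycine. Yeast runs the folate reactions in both compartments: Shm2, Ade3 and Mtd1 work in the cytosol and Shm1 and Mis1 in mitochondria. The units go into purines, thymidylate and methionine. The regulator Bas1, with Pho2, is known to activate purine and one-carbon genes, and Gcn4 activates amino acid synthesis genes.

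The genomic stretches upstream of the genes were read from the RefSeq sequence of the sacCer3 (R64) build, on which all 10 genes had the same start and end as in the table. The letters TGACTC, the core that Bas1 and Gcn4 recognise, were searched on both strands in the 500 bases before each start codon. They were present upstream of 7 of the 10 genes, namely SHM2, MTD1, ADE3, GCV1, GCV2, SER1 and SER2, and in 866 of 6659 such windows of all genes, which is 13.0%. In the nearest 200 bases the motif was present for 4 of the 10 genes, MTD1, GCV1, SER1 and SER2, and in 5.05% of all windows. One match per gene is shown, 5′ to 3′ on the strand of the gene, because these letters are what most of the genes have in common in sequence. Capitals mark the motif at the stated distance, or its reverse complement GAGTCA in SER2. The GCV2 stretch also holds the matches 257 and 239 bases before the start codon, as GAGTCA in lower case.
SHM2, chrXII:259653-259698, minus strand, 277 bases before the start codon: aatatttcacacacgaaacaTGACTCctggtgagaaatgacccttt
MTD1, chrXI:590201-590246, plus strand, 174 bases before: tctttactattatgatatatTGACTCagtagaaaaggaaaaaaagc
ADE3, chrVII:905701-905746, plus strand, 213 bases before: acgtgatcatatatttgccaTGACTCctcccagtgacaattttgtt
GCV1, chrIV:485483-485528, minus strand, 143 bases before: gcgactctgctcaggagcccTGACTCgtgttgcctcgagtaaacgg
GCV2, chrXIII:637229-637274, plus strand, 251 bases before: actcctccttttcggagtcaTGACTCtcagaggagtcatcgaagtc
SER1, chrXV:679153-679198, plus strand, 184 bases before: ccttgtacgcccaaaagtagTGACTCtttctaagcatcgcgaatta
SER2, chrVII:911708-911753, plus strand, 155 bases before: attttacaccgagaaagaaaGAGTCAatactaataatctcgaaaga

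SHM2 and GCV2 had 4 matches each, MTD1 had 2, and ADE3, GCV1, SER1 and SER2 had 1 each. The SHM2 matches 414 and 390 bases from the start codon lie within the neighbouring gene REX2, and the SER1 match lies within FYV12. SHM1 and MIS1, both for mitochondrial enzymes, and SER3 had no match in the window, which says only that these letters are not there. The letters CTTCTT, the core of a glycine response element described for the GCV genes, were searched in the same way, and in GCV2 one match of each motif shares 1 base. They were found upstream of SHM1, SHM2, MTD1, GCV1, GCV2 and SER2, 6 of the 10 genes, and in 52.5% of all windows, a share that makes a match common. A match is a stretch of letters, not a measured binding site.

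**Figure D1:**
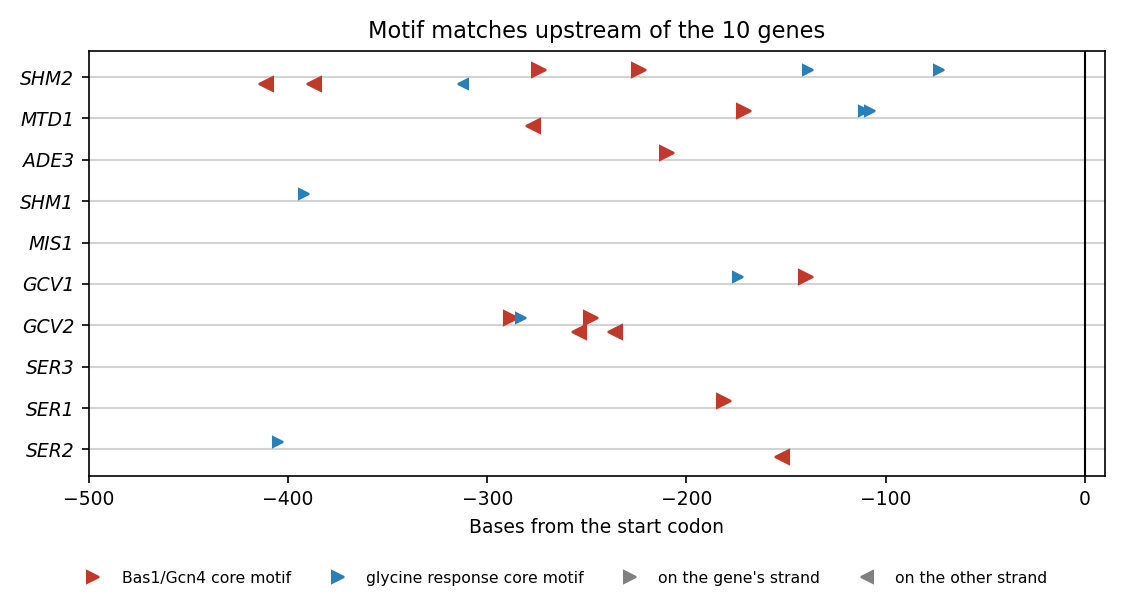
Position of motif matches upstream of the 10 genes. The x axis gives bases from the start codon and each row is 1 gene; red triangles are the Bas1/Gcn4 core and blue triangles the glycine response core, pointing right for the gene's own strand and left for the other strand. The rows of MIS1 and SER3 are empty, and that of SHM1 has no red triangle.

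The genes of the cytosolic folate enzymes had lower levels in scc2-4 than in WT cells, and those of the mitochondrial folate enzymes had slightly higher ones. SHM2 (YLR058C, chrXII:257992-259401, minus strand) encodes the cytosolic serine hydroxymethyltransferase, which forms glycine and a one-carbon unit from serine. It had 164.69, 188.77 and 174.65 RPKM in scc2-4 libraries, against 892.02, 572.03 and 490.17 RPKM in WT libraries. The groups were far apart, and WT replicate 1 was the highest library. Its mean was 176 ± 12.1 RPKM in scc2-4 and 651 ± 212 RPKM in WT (SD, n = 3 each). The fitted difference was -1.83 ± 0.19 (SE) on the centred log2(RPKM + 1) scale, a fitted 3.54-fold lower level. Of all 6559 features it stood at place 65 from the lowest difference. Without WT replicate 1 the difference was -1.62.

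MTD1 (YKR080W, chrXI:590395-591357, plus strand) encodes the cytosolic, NAD-dependent methylenetetrahydrofolate dehydrogenase, which oxidises the carried unit. It had 71.37, 68.98 and 79.93 RPKM in scc2-4 libraries, against 241.32, 178.27 and 163.00 RPKM in WT libraries. Every scc2-4 library lay below every WT library, by a factor of 2.57 between the fitted levels and a log2 difference of -1.36 ± 0.14. Without WT replicate 1 the MTD1 difference was -1.24. ADE3 (YGR204W, chrVII:905934-908774, plus strand) encodes the cytosolic C1-tetrahydrofolate synthase, a trifunctional enzyme that interconverts the folate forms used for purine synthesis. It had 89.65, 105.07 and 93.89 RPKM in scc2-4 libraries, against 199.03, 185.27 and 169.58 RPKM in WT libraries. Here the WT libraries lay close together as well, and the log2 difference of -0.92 ± 0.11 was nearly the same without WT replicate 1, at -0.91.

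SHM1 (YBR263W, chrII:736264-737736, plus strand) encodes the mitochondrial serine hydroxymethyltransferase. It had 245.62, 242.47 and 241.12 RPKM in scc2-4 libraries, against 161.31, 210.12 and 209.17 RPKM in WT libraries. The groups did not overlap, and the scc2-4 libraries were the most alike for any of the 10 genes, with a coefficient of variation of 0.950%. The log2 difference was 0.35 ± 0.15, and 0.18 without WT replicate 1, the lowest library. MIS1 (YBR084W, chrII:411054-413981, plus strand) encodes the mitochondrial C1-tetrahydrofolate synthase, the counterpart of Ade3. It had 143.77, 150.24 and 156.32 RPKM in scc2-4 libraries, against 66.42, 105.18 and 123.77 RPKM in WT libraries. All scc2-4 libraries were higher than all WT libraries, with a log2 difference of 0.66 ± 0.25. Without WT replicate 1, which was lowest here too, it was 0.36.

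Within each library a cytosolic folate enzyme transcript was set against a mitochondrial one, which removes any scaling of the library. The ratio of SHM2 to SHM1 was 0.671, 0.779 and 0.724 in scc2-4 libraries, against 5.53, 2.72 and 2.34 in WT libraries. SHM2 transcripts made up 40.1%, 43.8% and 42.0% of the summed RPKM of both genes in scc2-4 libraries, against 84.7%, 73.1% and 70.1% in WT libraries. So SHM1, for the mitochondrial enzyme, had the more abundant transcript in every scc2-4 library, and SHM2, for the cytosolic one, in every WT library. For the trifunctional enzymes the ratio of ADE3 to MIS1 was 0.624, 0.699 and 0.601 in scc2-4 libraries, against 3.00, 1.76 and 1.37 in WT libraries, the same inversion. MTD1, also set against MIS1 although that is the counterpart of ADE3, gave 0.496, 0.459 and 0.511 in scc2-4 libraries, against 3.63, 1.69 and 1.32 in WT libraries. The side of 1 did not depend on WT replicate 1, since the other WT libraries were above 1 in all 3 ratios.

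**Figure D2:**
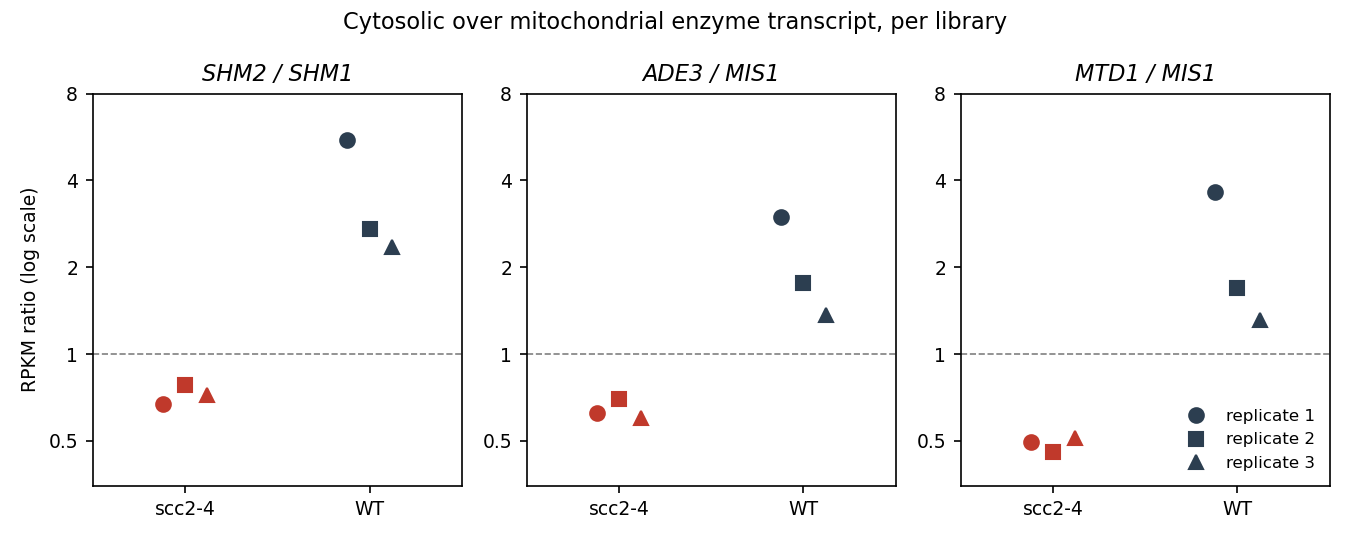
RPKM of a cytosolic folate enzyme gene divided by that of a mitochondrial one in each library, on a log axis. The ratios are SHM2 to SHM1, ADE3 to MIS1 and MTD1 to MIS1. Red symbols are the scc2-4 libraries, dark symbols the WT libraries, and the dashed line marks equal levels. All scc2-4 ratios lie below 1, from 0.459 to 0.779, and all WT ratios above it, from 1.32 to 5.53.

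The sums over a pair behaved differently for the 2 reactions. SHM1 and SHM2 together had 410.31, 431.24 and 415.77 RPKM in scc2-4 libraries, against 1053.33, 782.15 and 699.34 RPKM in WT libraries, a mean that was 2.02-fold higher in WT. ADE3 and MIS1 together had 233.42, 255.31 and 250.21 RPKM in scc2-4 libraries, against 265.45, 290.45 and 293.35 RPKM in WT libraries, a mean 1.15-fold higher in WT. For the second pair the lower ADE3 level was thus offset in part by the higher MIS1 level. The paired genes are related in sequence but could be counted apart: SHM2 and SHM1 coding sequences were 63.3% identical and ADE3 and MIS1 66.6%, and no 36-base stretch of these 4 genes occurs elsewhere in the genome. The read length is not stated.

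The 2 genes of the glycine cleavage system among the 10 differed from each other. GCV1 (YDR019C, chrIV:484163-485365, minus strand) encodes the T subunit, which passes the one-carbon unit from glycine to tetrahydrofolate. It had 36.99, 33.84 and 38.84 RPKM in scc2-4 libraries, against 201.66, 91.17 and 61.86 RPKM in WT libraries. The groups did not overlap, but the WT libraries spread over a wide range. The log2 difference was -1.48 ± 0.35, and -1.05 without WT replicate 1.

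GCV2 (YMR189W, chrXIII:637500-640604, plus strand) encodes the P subunit, the decarboxylase that acts first. It had 27.07, 28.90 and 31.33 RPKM in scc2-4 libraries, against 72.54, 31.01 and 22.19 RPKM in WT libraries. It was the one gene of the 10 whose groups overlapped: the WT libraries lay both above and below the scc2-4 range. Its log2 difference of -0.33 ± 0.35 turned to 0.11 without WT replicate 1. The ratio of GCV1 to GCV2 was 1.37, 1.17 and 1.24 in scc2-4 libraries, against 2.78, 2.94 and 2.79 in WT libraries. That ratio was nearly the same in all WT libraries, although WT replicate 1 had 2.64 times the GCV1 level and 2.73 times the GCV2 level of the mean of the other WT libraries.

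The serine synthesis genes were all lower in scc2-4 libraries, by smaller factors. SER3 (YER081W, chrV:322686-324095, plus strand) encodes 3-phosphoglycerate dehydrogenase, the first step. It had 139.25, 121.96 and 149.60 RPKM in scc2-4 libraries, against 341.71, 208.67 and 180.81 RPKM in WT libraries. The groups did not overlap, and the log2 difference was -0.77 ± 0.21, or -0.54 without WT replicate 1. SER3 shares 77 bases with the upstream non-coding transcript SRG1, whose transcription is known to repress SER3, and whether the counting used strand is not stated. SRG1 had 98.42, 88.73 and 90.24 RPKM in scc2-4 libraries, against 194.14, 129.22 and 101.96 RPKM in WT libraries, so both features had lower values in scc2-4. The SRG1 difference of -0.55 ± 0.19 did not pass the test (limma, adjusted p = 0.0648). The ratio of SER3 to SRG1 overlapped between the groups, at 1.41, 1.37 and 1.66 in scc2-4 libraries, against 1.76, 1.61 and 1.77 in WT libraries.

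SER1 (YOR184W, chrXV:679357-680544, plus strand) encodes phosphoserine aminotransferase, the step after Ser3. It had 188.22, 185.77 and 210.81 RPKM in scc2-4 libraries, against 337.05, 286.12 and 275.03 RPKM in WT libraries, a log2 difference of -0.60 ± 0.11. Without WT replicate 1 the SER1 difference was -0.56. SER2 (YGR208W, chrVII:911883-912812, plus strand) encodes phosphoserine phosphatase, which releases serine. It had 56.80, 51.45 and 63.88 RPKM in scc2-4 libraries, against 72.56, 95.35 and 95.75 RPKM in WT libraries, a log2 difference of -0.59 ± 0.17. Neither gene had overlapping groups. SER2 went the other way from the remaining lower genes in one respect: its WT replicate 1 was the nearest WT library to scc2-4, and without it the difference was -0.76.

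**Figure D3:**
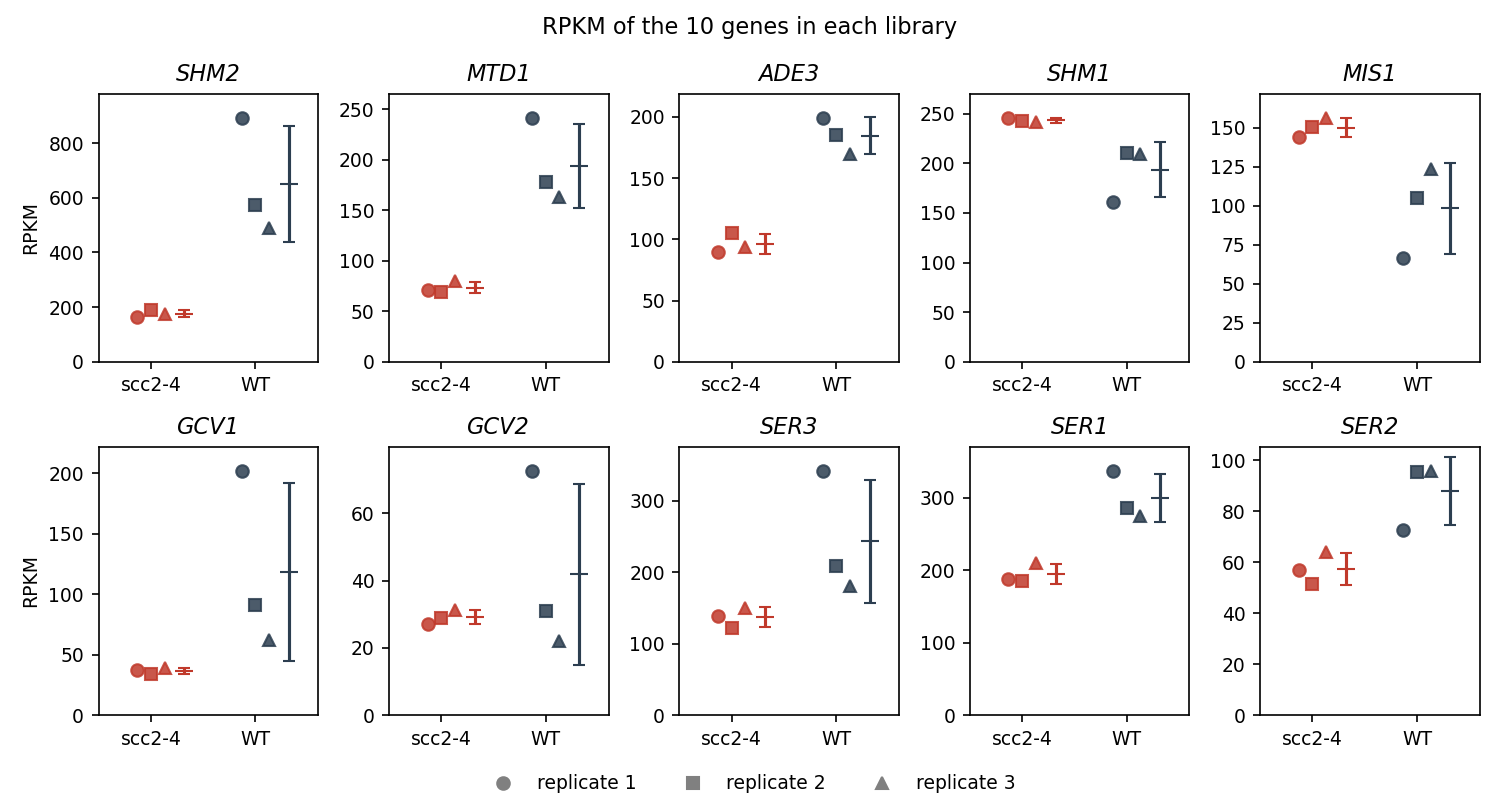
RPKM of the 10 genes in each library, one panel per gene with its own axis from 0; red symbols are the scc2-4 libraries, dark symbols the WT libraries, and bars give the mean ± SD (n = 3). The scc2-4 symbols lie below the WT symbols for SHM2, MTD1, ADE3, GCV1, SER3, SER1 and SER2 and above them for SHM1 and MIS1, and WT replicate 1 is the WT library farthest from scc2-4 for all of these except SER2.

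In the limma fit over all features, 7 of the 10 genes had an adjusted p under 0.05 with a lower level in scc2-4, where 15.0% of all 6559 features did. None of the 10 passed with a higher level, where 17.5% of all features did. All 3 scc2-4 libraries lay below all 3 WT libraries for 7 of the 10 genes and 23.6% of features, and above them for 2 genes and 30.9% of features. The median log2 difference of the 10 genes was -0.68, against 0.05 over all features. Without scc2-4 replicate 1, 2 or 3, the genes that passed as lower numbered 4, 3 or 4. All features passing in either direction then went from 2133 to 1039, 781 or 766. Without WT replicate 1, 2 or 3, the genes that passed as lower numbered 7, 5 or 6, with 2442, 1415 or 2335 features passing in either direction. In 3 of 14 settings, without WT replicate 1 or 3 and with a replicate block, 1 of the 10 genes passed as higher. Since the genes were selected on this same contrast, nothing is read from any of these counts.

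WT libraries varied more than scc2-4 libraries for 9 of the 10 genes, the exception being ADE3, with a coefficient of variation of 8.28% in scc2-4 and 7.98% in WT. Over the 10 genes it lay between 0.950% and 10.9% over the scc2-4 libraries and between 7.98% and 64.2% over the WT libraries. For 8 of the 9 genes whose groups did not overlap, WT replicate 1 was the WT library farthest from scc2-4. The same held for 73.3% of the 3575 features with groups that did not overlap. Relative to the mean of the other WT libraries, WT replicate 1 had 1.68 times the SHM2 level and 1.75 times the SER3 level, but 0.769 times the SHM1 level and 0.580 times the MIS1 level. Its part in the differences between genotypes is shown by the values without it, given above, all of which kept their sign except GCV2.

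Ordered by mean RPKM per library group, the levels in scc2-4 cells ran SHM1, SER1, SHM2, MIS1, SER3, ADE3, MTD1, SER2, GCV1 and GCV2. Of these neighbours, SER1 and SHM2 overlapped over the libraries, as did MIS1 and SER3, and the others did not. In WT cells the order was SHM2, SER1, SER3, MTD1, SHM1, ADE3, GCV1, MIS1, SER2 and GCV2. There SHM2 stood above SER1 without overlap, every further neighbouring pair down to SER2 overlapped, and SER2 was barely separate from GCV2, with 72.56 RPKM in its lowest library and 72.54 RPKM in the highest of GCV2. SHM1 was thus the most abundant of the 10 transcripts in scc2-4 cells, while 4 of them stood above it in the means of all WT libraries. Without WT replicate 1, an order computed after seeing the data, only SHM2 and SER1, 2 of the 10, stood above it.

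The likeness of profiles was measured as the root mean square difference of centred log2 values over the 6 libraries. Among the 10 genes, ADE3 and SER1 were the closest pair, at 0.19, followed by SER1 and SER3 at 0.21 and by SHM1 and MIS1 at 0.22. Among all 5342 features with a mean of at least 10 RPKM, the nearest to ADE3 was ADE4, the first enzyme gene of purine synthesis, at 0.06. The nearest to MTD1 was ADE13, the adenylosuccinate lyase gene of the same pathway, also at 0.06. SHM2 was nearest to TPS2, the trehalose-phosphate phosphatase gene, at 0.12, and MIS1 to SXM1, a nuclear import receptor gene, at 0.02. SHM1 was nearest to PRS1, a phosphoribosyl pyrophosphate synthetase gene, at 0.03. Second nearest were CUP9 for ADE3 and OCA6 for MTD1, both at 0.08, and YMR173W-A for SHM2 at 0.12. They were SPB4 for SHM1 and NIP1 for MIS1, both at 0.03. For the remaining genes the nearest were HTB1 for SER1 and COX20 for SER3, both at 0.05, and SNR11 for SER2 at 0.11. They were YDL025W-A for GCV1 at 0.16 and YNL195C for GCV2 at 0.12. The profiles rest on 6 libraries of 2 genotypes, and they are given as a description.

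Of 37 further genes of the pathway, 6 rose and 5 fell in scc2-4 cells, and 26 did not pass (limma, adjusted p threshold 0.05). These are 16.2% and 13.5% of the genes, near the 17.5% and 15.0% of all features. Their median log2 difference was -0.05, against 0.05 over all features. The calls of each list below stand beside these same shares of all features. With 5 to 9 genes per list, nothing is read from a list's count. The lists, like the 10 genes, were drawn up with results of these data known. GLY1, BAS1, ADE17, ADE8 and MET12 passed under all 14 settings. Without scc2-4 replicate 2, scc2-4 replicate 3 or WT replicate 2 the count of 11 dropped to 6, 5 or 7. The count over all features dropped from 2133 to 781, 766 or 1415 in the same settings.

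Among 5 further genes of serine and glycine routes, GLY1 rose and HEM25 fell, and 3 did not pass. The list, which also holds a catabolic deaminase and a carrier, had a median difference of -0.33. GLY1, for threonine aldolase, which makes glycine from threonine, had 310.69, 313.64 and 299.13 RPKM in scc2-4 libraries, against 116.73, 166.95 and 176.48 RPKM in WT libraries. This rise was 2.05-fold as fitted on the log2(RPKM + 1) scale (limma, difference 1.03 ± 0.19, adjusted p = 0.0105). SHM2, whose enzyme also forms glycine, was lower in the same libraries, and a link to GLY1 was not tested. Without WT replicate 1 the GLY1 difference was 0.81. AGX1, which makes glycine from glyoxylate, had 9.49, 9.22 and 8.86 RPKM in scc2-4 libraries, against 26.28, 12.36 and 10.42 RPKM in WT libraries, and did not pass (limma, adjusted p = 0.104). Its difference of -0.65 was -0.31 without WT replicate 1. CHA1, the catabolic serine and threonine deaminase gene, had a difference of -0.33 (limma, adjusted p = 0.249). HEM25, for a mitochondrial glycine carrier, fell 1.34-fold, overlaps another gene, and did not pass without any one of the scc2-4 libraries or without WT replicate 2 (limma, adjusted p of 0.0805 to 0.1). It also missed the threshold with the replicate block (adjusted p = 0.054 in limma) and without centring (adjusted p = 0.0501 in limma), and passed under 8 of 14 settings.

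SER33, the paralog of SER3 on chromosome IX, had 131.38, 146.37 and 160.96 RPKM in scc2-4 libraries, against 141.73, 117.21 and 118.08 RPKM in WT libraries, and did not pass (difference 0.23 ± 0.12; limma, adjusted p = 0.175). SER3 had 1.06, 0.833 and 0.929 times the SER33 level in scc2-4 libraries, against 2.41, 1.78 and 1.53 times in WT libraries. The coding sequences of SER3 and SER33 are 82.7% identical, share a run of 56 bases and have 3.27% of their 36-base stretches elsewhere in the genome, so a small part of their reads could be misplaced. Chromosome IX as a whole was 1.76-fold higher in scc2-4 by the median of its 244 features, and chromosome I 1.20-fold. None of the 10 genes lies on either chromosome, and the part of the chromosome in the SER33 value was not tested.

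In the rest of the glycine cleavage system, LIP5, the lipoate synthase gene, rose 1.48-fold and 4 of 5 genes did not pass, with a list median of -0.17. LIP5 missed the threshold without scc2-4 replicate 3 (limma, adjusted p = 0.0543). GCV3, for the H subunit, lies on chromosome I and had 310.14, 183.41 and 227.76 RPKM in scc2-4 libraries, against 333.56, 201.40 and 159.26 RPKM in WT libraries. These values overlapped (difference 0.10 ± 0.27; limma, adjusted p = 0.784), unlike those of GCV1. GCV3 had 8.38, 5.42 and 5.86 times the GCV1 level in scc2-4 libraries, against 1.65, 2.21 and 2.57 times in WT libraries. LPD1, for the L subunit that also serves other dehydrogenase complexes, had a difference of -0.22 (limma, adjusted p = 0.124).

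Of 8 genes that use one-carbon units, ADE17, ADE8 and MET12 fell and CDC21, the thymidylate synthase gene, rose, while 4 did not pass. The shares were 37.5% lower and 12.5% higher, against 15.0% and 17.5% of all features, and the median difference was -0.37. CDC21 overlaps another feature, and missed the threshold without any one of the scc2-4 libraries or without WT replicate 2 (limma, adjusted p of 0.0546 to 0.0809). ADE17 encodes an isozyme of the enzyme that uses formyl-tetrahydrofolate in the last steps of purine synthesis. It had 62.27, 67.18 and 62.19 RPKM in scc2-4 libraries, against 907.67, 515.72 and 478.87 RPKM in WT libraries (log2 difference -3.22 ± 0.21; limma, adjusted p = 0.00129). Without WT replicate 1 the ADE17 difference was -2.97. Its paralog ADE16 had a difference of -0.18 and did not pass (limma, adjusted p = 0.180), so ADE17 had 0.586, 0.590 and 0.557 times the ADE16 level in scc2-4 libraries, against 6.63, 4.11 and 4.11 times in WT libraries. ADE8, for the earlier formyl transfer of purine synthesis, fell to 106 ± 3.12 RPKM in scc2-4, against 178 ± 34.5 RPKM in WT (SD, n = 3 each; limma, adjusted p = 0.00829). MET12, for a methylenetetrahydrofolate reductase, fell to 46.4 ± 2.27 RPKM in scc2-4, against 76.6 ± 9.70 RPKM in WT (SD, n = 3 each; limma, adjusted p = 0.00486). MET6, the methionine synthase gene, had a difference of -0.36 and did not pass (limma, adjusted p = 0.119).

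Of 9 folate synthesis genes, DFR1, for dihydrofolate reductase, rose 1.35-fold and 8 did not pass, with a median difference of 0.16. DFR1 missed the threshold without scc2-4 replicate 2 or 3 or WT replicate 2 or 3 (limma, adjusted p of 0.0519 to 0.0844). FOL1, for the enzyme of early folate synthesis steps, had a larger difference, 0.69, and did not pass (limma, adjusted p = 0.0548), but passed as higher under 4 of 14 settings, namely without centring, with the replicate block and without WT replicate 1 or 3. Of 5 genes that use serine or glycine, LCB1, for a subunit of serine palmitoyltransferase, rose to 25.0 ± 5.18 RPKM in scc2-4, against 15.7 ± 0.820 RPKM in WT (SD, n = 3 each; limma, adjusted p = 0.0293), and 4 did not pass; the median was 0.12. The LCB1 call was lost without scc2-4 replicate 2, scc2-4 replicate 3 or WT replicate 2, at adjusted p of 0.1, 0.105 and 0.079 in limma.

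Of 5 regulators, BAS1 rose, PHO2 fell and 3 did not pass, with a median difference of -0.03. BAS1 had 12.14, 13.02 and 13.42 RPKM in scc2-4 libraries, against 3.62, 6.23 and 6.16 RPKM in WT libraries. The fitted log2 difference was 1.17 ± 0.22 (limma, adjusted p = 0.0103), and 0.91 without WT replicate 1. PHO2, its partner, had 11.7 ± 0.587 RPKM in scc2-4 and 16.2 ± 1.79 RPKM in WT (SD, n = 3 each), passed as lower (limma, adjusted p = 0.0182), and missed the threshold without any one of the scc2-4 libraries (0.0531 to 0.0655). The transcript of Bas1 was higher in the same libraries in which SHM2, MTD1, ADE3 and ADE17 were lower, and a link between them was not tested. GCN4 had 276 ± 19.4 RPKM in scc2-4 and 218 ± 5.43 RPKM in WT (SD, n = 3 each) and did not pass (limma, adjusted p = 0.0546). Gcn4 protein is known to be set mainly by translation, which RNA levels do not show.

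**Figure D4:**
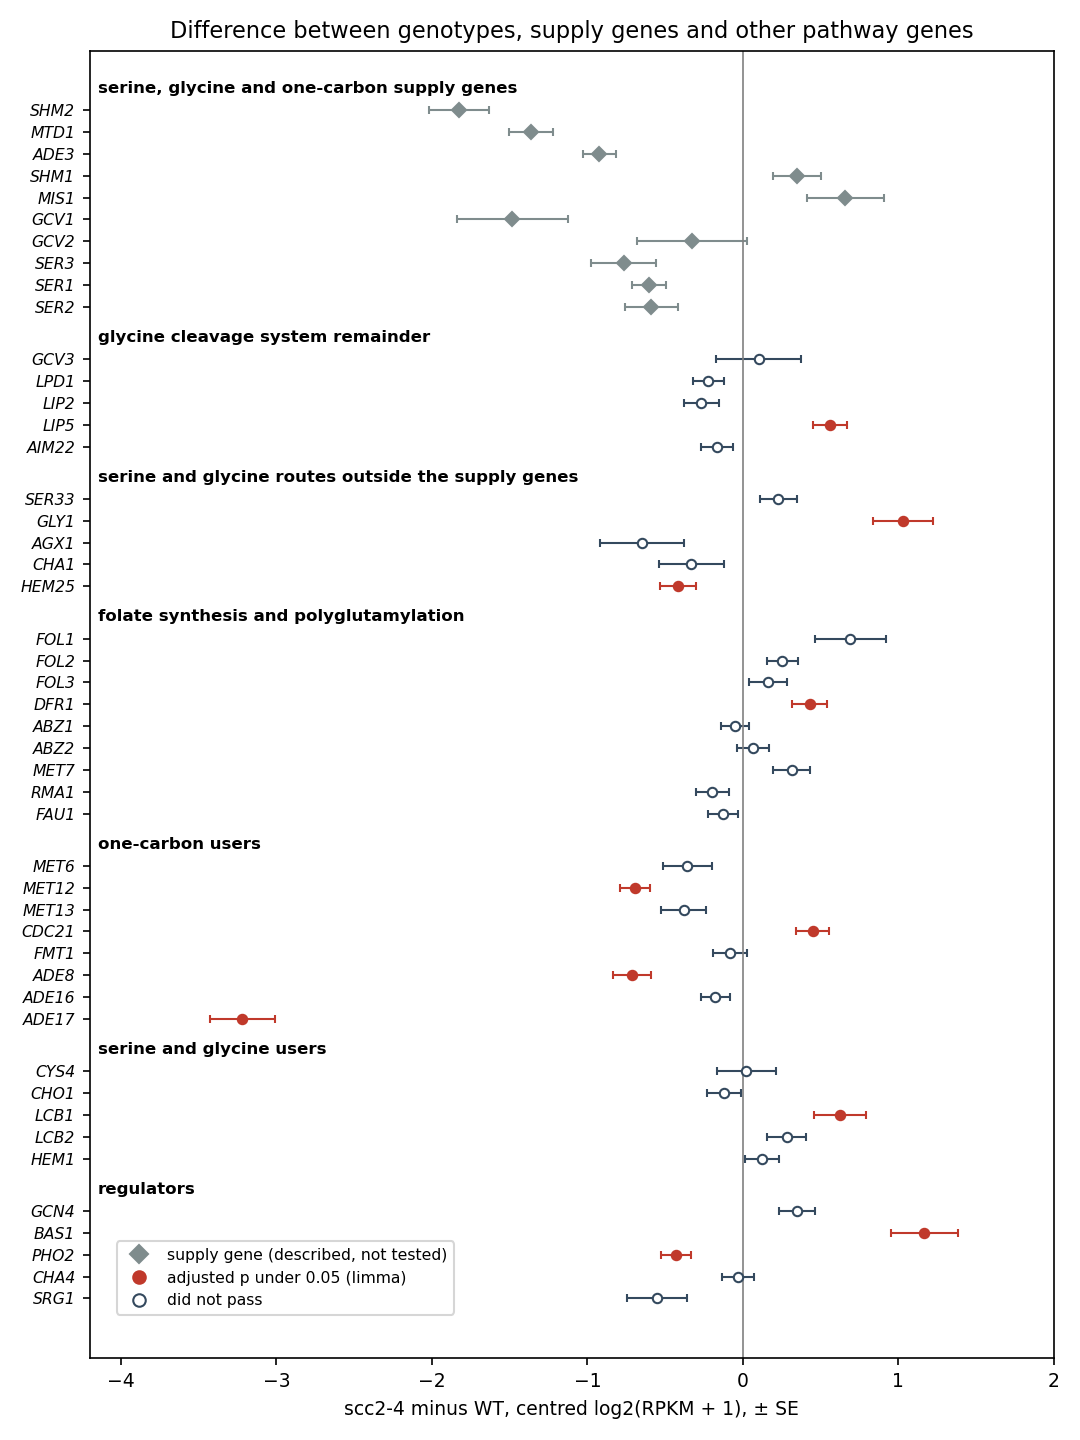
Difference in centred log2(RPKM + 1), scc2-4 minus WT, with its SE, for the 10 supply genes (grey diamonds, described and not tested) and 37 further pathway genes (red, adjusted p under 0.05 in limma; open, did not pass). SHM2, MTD1 and ADE3, for cytosolic folate enzymes, lie left of 0, and SHM1 and MIS1, for mitochondrial ones, lie right of it. ADE17 at -3.22 is farthest from 0 among the further genes.

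The upstream letters were also read against the calls. TGACTC was present in 160 of 965 windows of features that fell, or 16.6%, in 149 of 1128 of those that rose, or 13.2%, and in 519 of 4220 of those that did not pass, or 12.3%. Of the further pathway genes with a window, 14 of 36 held it, among them ADE17 and ADE8, which fell, LIP5 and DFR1, which rose, and GCV3 and SER33, which did not pass. MET12, GLY1 and BAS1 did not hold it. Of the supply genes with a match, SHM2, MTD1, ADE3, GCV1, SER1 and SER2 had a lower level in every scc2-4 library. GCV2, with 4 matches, had overlapping groups. Of those without a match, SHM1 and MIS1 had a higher level in every scc2-4 library and SER3 a lower one. A part of the motif in any of these levels was not tested.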

How the data were processed

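RNA sequencing libraries of scc2-4 and WT yeast were compared, 3 per genotype. Reads were aligned with Bowtie to sacCer3, per the submitters' processing notes, which name no version or counter here. The authors deposited RPKM values. Multiplied by feature span they sum to 1000000 per column, so they are relative to reads assigned to features. Whole reads were recovered from their steps: 99.8% to 100% of values lay within 0.1 of a whole read. Overlapping features cannot be told apart, since no use of strand is stated.

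Features with a mean of at least 1 RPKM were kept, values were transformed to log2(RPKM + 1) and each column was centred on its median feature, which removed a shift of -0.01 between genotypes. On this scale fold changes of low features are understated. The genotype comparison used limma 3.58.1 under R 4.3.3 (empirical Bayes with trend, two-sided), with Benjamini-Hochberg adjustment over all 6559 features and a threshold of 0.05; every adjusted p comes from it. Where separate cultures are concerned, only the design text says that the replicates are biological. Reads without molecular identifiers are not independent molecules, so counting errors cover counting only.

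The 10 genes, the 37 further genes and the comparisons were chosen with earlier results of these data known. Named were all 10 genes, 10 listed genes whatever their values, each further list gene past the threshold with at least a 1.5-fold change, and nearest profiles. Smaller calls of a list (LIP5, HEM25, DFR1, CDC21 and PHO2), ADE16 and FOL1 were named in addition, after their values were seen. Names came from the table, and HEM25 and MET15 from the RefSeq gene table. Replicate numbers were checked for pairing: deviations of same-numbered libraries correlated at 0.305, -0.0622 and 0.353, and those of different-numbered libraries at -0.398 to 0.260. These values do not settle whether the numbers pair libraries, and the numbers were not taken to pair them. Replicates of a group differed by more than sampling noise. Alternatives were other pseudocounts, filters, scaling, a replicate block, leaving out each library, and limma-voom on the recovered reads, added after seeing the data. Python 3.11.15, pandas 2.3.3, Biopython 1.88 and matplotlib 3.10.9 were used for tables, sequences and figures. Upstream windows were 500 bases, with 200 as alternative.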

Additional observations from a re-analysis of the deposited data

How the results depend on the processing

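The count of features with an adjusted p under 0.05 was 2133 and lay between 2024 and 2341 under the other pseudocounts, filters and scaling, limma-voom and the replicate block. Leaving out 1 library gave, in either direction, 766 to 2442 features, 3 to 8 of the 10 genes (main count 7) and 5 to 15 of the 37 further genes (main count 11). By library, the feature counts were 1039, 781 and 766 without scc2-4 replicate 1, 2 and 3, and 2442, 1415 and 2335 without WT replicate 1, 2 and 3. The replicate block gave 2341 features, 8 of the 10 genes, 1 of them as higher, and 13 further genes. Whether the numbers pair the libraries is not settled, so this is not given as a paired result. Limma-voom, chosen after seeing the data, gave 2210 features, 7 of the 10 genes and 12 further genes. The 10 genes were selected on this same contrast, so nothing is read from their counts. The log2 difference in the ratio of SHM2 to SHM1 lay between -2.42 and -1.80, and that of ADE3 to MIS1 between -1.83 and -1.27, with 1 library left out. GCV3 lay between -0.11 and 0.36 with 1 library left out, at -0.08 without scc2-4 replicate 1 and -0.11 without WT replicate 3; the cause was not tested. GCN4 passed without centring and with the block, at 0.0395 and 0.0449 in limma. SRG1 passed without WT replicate 1 or 3, at 0.0436 and 0.0191, and with the block or limma-voom, at 0.0447 and 0.0444. AGX1 passed without WT replicate 3, at 0.0399. In the 200-base window the Bas1/Gcn4 core was found for 4 of the 10 genes and the glycine response core for 3. The planned edgeR test was not run, because the deposited values are RPKM and not counts. Leaving out a library leaves 2 in its group.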
